A study of Mus musculus with 2 samples.

Results

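The Dlk1-Dio3 domain on distal mouse chromosome 12 is an imprinted region that carries maternally expressed noncoding genes and paternally expressed protein-coding genes. The noncoding genes Meg3, Rian and Mirg and the protein-coding genes Dlk1, Rtl1 and Dio3 were taken by symbol and gene identifier, and all 6 were found among 55536 annotated genes. They were measured by total RNA sequencing of hippocampus from female B6CASTF1/J mice, an F1 cross of the strains C57BL/6J and CAST/EiJ. The mice were 18 to 20 months of age, 300 ng of RNA went into each library, and the libraries were depleted of ribosomal RNA and carried ERCC spike-in RNA. The labels describe 1 group with 2 libraries, numbered replicate 1 and replicate 2. The labels give both libraries 1 donor record and give each its own biosample record, and they do not state whether separate animals were used. With no second group nothing was tested, and a difference between the libraries is a description of that pair.

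In imprinted domains, DNA methylation set in the germline marks 1 parental copy and decides which genes that copy expresses. In the Dlk1-Dio3 domain the mark lies between Dlk1 and Meg3, and the unmethylated maternal copy makes the long noncoding RNAs together with many small nucleolar RNAs and microRNAs that lie in or beside them. The paternal copy makes the proteins, which act in Notch signalling, in placental vessels and in thyroid hormone breakdown, and brain is a tissue with abundant noncoding RNA of the domain. The tables hold no counts per allele although the strain is a hybrid, so every ratio below is between genes and not between parental copies.

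Levels are given as TPM, an abundance that corrects for effective length and lets genes be set side by side. The deposited gene table has the columns that RSEM writes and a deposited transcript table has those that kallisto writes. TPM values are from the RSEM layout unless the kallisto layout is named. The 2 layouts have different denominators. Genes annotated as miscellaneous RNA held 35.4% (replicate 1) and 37.8% (replicate 2) of TPM in the RSEM layout, against 0.00451% and 0.00669% in the same libraries of the kallisto layout. The median detected protein-coding gene was 1.67 times as high in the kallisto layout. Replicate 1 held 35358140 counts assigned to genes and replicate 2 held 36307291.

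Promoter sequences of 2 starts of Meg3 are shown because the share of Meg3 assigned to each start is a result below. Each is the RefSeq window on GRCm38.p6, plus strand, from 250 bases before the start to 50 bases after it, written 5′ to 3′. Capitals mark matches, on either strand, to TATAAA (the TATA box), TGACGTCA (the cAMP response element) or GGGCGG (the GC box). The first window, chr12:109540746-109541045, belongs to the outer start of Meg3. The second, chr12:109545148-109545447, ends its upstream stretch at the start of the transcript Meg3-209.
Meg3 outer start: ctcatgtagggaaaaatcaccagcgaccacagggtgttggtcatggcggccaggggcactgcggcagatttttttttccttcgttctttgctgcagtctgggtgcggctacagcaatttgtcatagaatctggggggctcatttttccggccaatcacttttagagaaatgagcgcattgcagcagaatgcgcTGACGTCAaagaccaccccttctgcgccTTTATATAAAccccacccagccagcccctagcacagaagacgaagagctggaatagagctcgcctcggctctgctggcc
Meg3 inner start: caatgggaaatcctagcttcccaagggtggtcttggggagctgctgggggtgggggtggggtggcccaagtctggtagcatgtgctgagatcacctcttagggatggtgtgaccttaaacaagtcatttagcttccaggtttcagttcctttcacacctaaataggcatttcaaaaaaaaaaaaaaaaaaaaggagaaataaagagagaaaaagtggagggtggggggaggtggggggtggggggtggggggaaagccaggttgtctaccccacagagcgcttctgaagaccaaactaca

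The outer Meg3 window held the TGACGTCA match 57 bases before the start and 2 overlapping TATAAA matches, 1 on each strand, which begin 29 and 25 bases before it. The RefSeq window of Dio3, chr12:110278980-110279279, whose start lies inside the GENCODE model of the gene, held TATAAA 31 bases before the start and 4 GGGCGG matches between 235 and 80 bases before it. The inner Meg3 window held none of the 3 motifs. Of 32851 RefSeq windows of the same length, 13.6% held TATAAA, 1.79% held TGACGTCA and 35.7% held GGGCGG on either strand. The outer and inner Meg3 windows had 13 and 1 CG pairs and the Dio3 window had 25, against a median of 7 over all windows. The windows of Rian, Mirg and Dlk1 held 0, 10 and 9 CG pairs and none of the 3 motifs. The Mirg window belongs to a start 5217 bases into the gene, that of the transcripts Mirg-202 and Mirg-206. Mirg-206 held 4.75% and 1.28% of Mirg TPM in replicates 1 and 2, and Mirg-202 held 0. The Dlk1 window belongs to the start of the transcript Dlk1-210, which was at 0 TPM in both libraries. The Rian window belongs to the start of the transcript Rian-216, while the leading transcript Rian-202 begins 42201 bases into the gene. The start of the Dio3 window lies past that of the leading transcript Dio3-202. The windows of Rian, Mirg, Dlk1 and Dio3 are therefore not those of the leading transcripts. A match is a description of the letters and does not show that a factor binds there.

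The noncoding genes were far above the protein-coding genes in both libraries. Meg3, a long noncoding RNA, had 762 TPM in replicate 1 and 827 TPM in replicate 2, a mean of 794 ± 46.1 (SD, n = 2). Rian, a long noncoding RNA that hosts C/D box small nucleolar RNAs, had 367 and 420 TPM in replicates 1 and 2 and averaged 394 ± 37.3. Mirg, whose span holds a microRNA cluster, had 31.0 and 35.4 TPM and averaged 33.2 ± 3.10. The 3 genes stepped down along the chromosome in both libraries, with no overlap between their values in the RSEM layout. In the kallisto layout the values of Meg3 (746 and 846 TPM) and Rian (704 and 821 TPM) overlapped.

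Among the protein-coding genes, Dlk1, a transmembrane protein related to the Notch ligands, had 5.21 TPM in replicate 1 and 4.58 TPM in replicate 2, a mean of 4.89 ± 0.445. Dio3, the selenoenzyme deiodinase that inactivates thyroid hormones, had 4.05 and 3.36 TPM in replicates 1 and 2 and averaged 3.71 ± 0.488. Rtl1, a protein derived from a Sushi-ichi retrotransposon and known from the placenta, had 0.07 and 0.04 TPM, from 11 and 7 counts. Dlk1 was 1.29 and 1.36 times as high as Dio3 in replicates 1 and 2, and the values of the 2 genes did not overlap. Rtl1 was below both genes, under 1 TPM in both libraries, and the other 5 genes were above it in both.

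**Figure D1:**
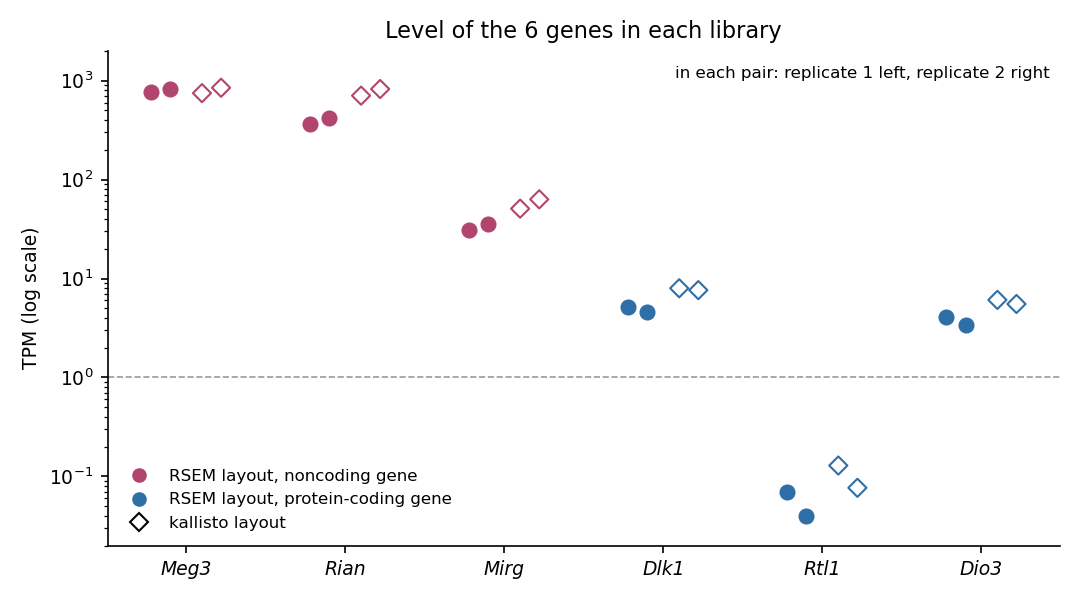
Level of each gene of the domain as TPM on a log axis, for replicate 1 and replicate 2, in the RSEM layout (filled circles) and the kallisto layout (open diamonds); the dashed line marks 1 TPM. The noncoding genes sit between 31.0 and 846 TPM, Dlk1 and Dio3 between 3.36 and 7.97 TPM, and Rtl1 between 0.04 and 0.129 TPM.

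The deposited gene table also gives a posterior mean TPM with a credibility interval whose level is not stated in the files. For Meg3 the posterior mean was 742 with an interval of 726 to 758 in replicate 1, and 807 with 791 to 823 in replicate 2. For Rian it was 361 (351 to 370) in replicate 1 and 413 (403 to 422) in replicate 2. The intervals of the 2 libraries did not overlap for Meg3 or Rian. The share of all genes whose intervals do not overlap was not computed, so this does not set Meg3 and Rian apart. For Mirg the intervals of 28.3 to 33.5 in replicate 1 and 33.1 to 38.4 in replicate 2 overlapped narrowly. The intervals of Dlk1 (4.74 to 6.70 and 4.20 to 5.87) and of Dio3 (3.45 to 4.72 and 2.91 to 3.99) overlapped over a large part of their width. For Rtl1 they ran from 0.0348 to 0.115 in replicate 1 and from 0.0169 to 0.0777 in replicate 2.

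Summed TPM of Meg3, Rian and Mirg was 124 times that of Dlk1, Rtl1 and Dio3 in replicate 1 and 161 times in replicate 2, a mean of 143 ± 25.7. With Meg3 left out, Rian and Mirg together were 42.7 and 57.1 times the protein-coding genes in replicates 1 and 2. In the kallisto layout the summed ratio was 106 in replicate 1 and 131 in replicate 2. The noncoding sum was thus over 100 times the coding sum in each library of each layout while Meg3 was included. Mirg, the lowest noncoding gene, was still 5.94 and 7.72 times as high as Dlk1, the highest protein-coding gene, in replicates 1 and 2. In bulk tissue, fewer cells that express a gene and less RNA per cell cannot be told apart.

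Within the noncoding genes, 1 ratio held across libraries and layouts better than another. Rian was 11.9 times as high as Mirg in both libraries, and 13.9 and 13.0 times in the kallisto layout of replicates 1 and 2. Meg3 was 2.07 and 1.97 times as high as Rian in the RSEM layout but 1.06 and 1.03 times in the kallisto layout. Between layouts, Meg3 was at 746 and 846 TPM in the kallisto tables, 1.00 times its RSEM level, while Rian was at 704 and 821 TPM, 1.94 times its RSEM level. Mirg, Dlk1, Rtl1 and Dio3 were 1.72, 1.59, 1.87 and 1.57 times as high in the kallisto layout, close to the 1.67 of the median detected protein-coding gene. Rian moved less in counts than in TPM, with 15280 and 18538 estimated counts in replicates 1 and 2 of the kallisto layout, against 14100 and 17177 in the RSEM layout. Meg3 had 69315 and 77915 estimated counts in the kallisto layout, against 64525 and 72143 in the RSEM layout. Meg3 was above Rian in each library of both layouts, and the size of that ratio depended on the layout.

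In reads, the noncoding genes held 79997 counts in replicate 1 and 90939 in replicate 2. These are 0.226% (exact 95% Clopper-Pearson interval 0.225 to 0.228) and 0.250% (0.249 to 0.252) of gene-assigned counts. The protein-coding genes held 550 counts in replicate 1 and 524 in replicate 2, or 0.00156% (0.00143 to 0.00169) and 0.00144% (0.00132 to 0.00157). Reads carry no molecular identifiers here, so such intervals cover counting error only. Of all counts in long noncoding genes, Meg3, Rian and Mirg held 4.59% in replicate 1 and 5.25% in replicate 2.

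By mean TPM, Meg3 ranked 5 among long noncoding genes, Rian 8 and Mirg 27, where 652 such genes were at 1 TPM or more in both libraries. Over genes of every biotype the ranks were 64, 134 and 3217. Dlk1 and Dio3 ranked 10074 and 10725 among protein-coding genes, of which 12733 were at 1 TPM or more in both libraries. Both therefore lay in the lower part of the detected protein-coding genes. The next long noncoding gene above Meg3 was Gm42418 at 2107 and 1913 TPM in replicates 1 and 2, and the next below was Snhg14, the host transcript of the Prader-Willi small nucleolar RNAs, at 523 and 521 TPM. Meg3 overlapped neither. Rian lay below 2900097C17Rik (460 and 458 TPM) and just above C230004F18Rik (349 and 389 TPM), whose values overlapped those of Rian. Mirg lay between 1500004A13Rik (33.8 and 33.4 TPM) and A330023F24Rik (29.8 and 28.9 TPM), the first within the range of Mirg and the second below it. With 2 libraries, likeness could be measured as level alone.

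Nearest in level to Dlk1 among protein-coding genes were Bach1 (4.94 and 4.85 TPM) and Socs4 (5.31 and 4.47 TPM), and nearest to Dio3 were Zfp408 (3.80 and 3.61 TPM) and Cfap300 (3.96 and 3.44 TPM). For Rtl1 they were Serpinc1 (0.04 and 0.07 TPM) and Cd28 (0.05 and 0.06 TPM). These 6 neighbours were picked as nearest in mean TPM, so their closeness to the genes of the domain follows from the choice. Malat1, the nuclear long noncoding RNA that led a list of 10 well-known long noncoding genes, had 3738 and 3467 TPM in replicates 1 and 2. The lowest of that list was Kcnq1ot1, the noncoding RNA of another imprinted domain, at 1.66 and 1.49 TPM, below all 3 noncoding genes of the Dlk1-Dio3 domain. In counts, which are not corrected for length, Kcnq1ot1 was above Mirg, with 3945 and 3768 against 1372 and 1619 in replicates 1 and 2. Xist, the RNA of X inactivation, was the 1 gene of that list called over 2-fold apart, at 154 and 71.0 TPM.

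**Figure D2:**
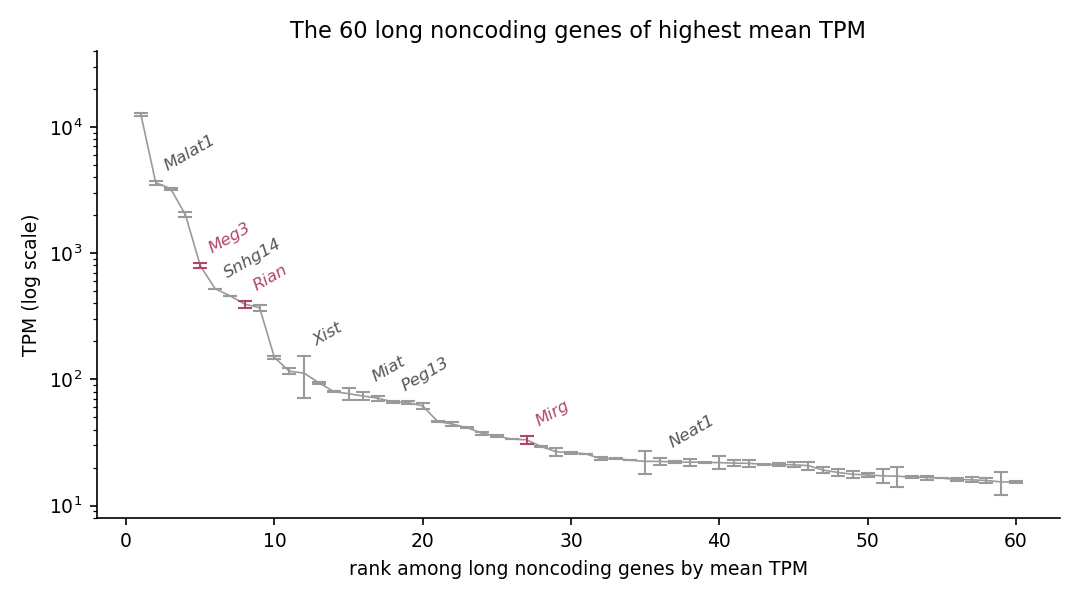
TPM on a log axis of the 60 long noncoding genes of highest mean TPM against their rank; each vertical line joins replicate 1 and replicate 2, and red marks Meg3, Rian and Mirg. Meg3 is at rank 5, Rian at rank 8 and Mirg at rank 27.

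The members were then compared between the libraries on counts scaled with TMM factors, with an exact 95% binomial interval for counting error. Of the 5 genes that averaged 50 counts or more, 0 were over 2-fold apart, against 55 of 14307 genes (0.384%), and 0 were over 1.2-fold apart, against 10.4% of the same genes. Meg3 in replicate 1 was 0.916 times its level in replicate 2 (interval 0.906 to 0.926), Rian 0.841 times (0.822 to 0.860) and Mirg 0.868 times (0.807 to 0.933). All 3 noncoding genes were lower in replicate 1 than in replicate 2 by more than counting error. Dlk1 was 1.05 times (0.897 to 1.22) and Dio3 1.11 times (0.901 to 1.37) as high in replicate 1 as in replicate 2, and both intervals included no difference. Rtl1, with 11 and 7 counts, was 1.61 times as high with an interval of 0.570 to 4.90, and had too few counts for a comparison.

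On the log2 scale the median ratio was -0.20 for the noncoding genes, against 0.01 over 541 long noncoding genes of that depth. The median absolute log2 ratio over all 14307 genes was 0.07. The ratio of Meg3 was smaller in size than that of 28.9% of those genes. The ratio of Rian was smaller than that of 11.2% of them, and the ratio of Mirg than that of 15.5%. Each was thus larger in size than the ratio of most of those genes. The genes were not matched in counts to Meg3, Rian and Mirg. How common such differences are among genes of like depth was not tested. The biological coefficient of variation, the spread between the libraries beyond counting error in edgeR, was 4.66% over 17697 genes. The sign of each gene's ratio was the same under all 8 other scalings and count sources, with a range of -0.15 to -0.12 for Meg3, -0.26 to -0.19 for Rian, -0.25 to -0.19 for Mirg, 0.05 to 0.19 for Dlk1 and 0.06 to 0.27 for Dio3 on the log2 scale.

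**Figure D3:**
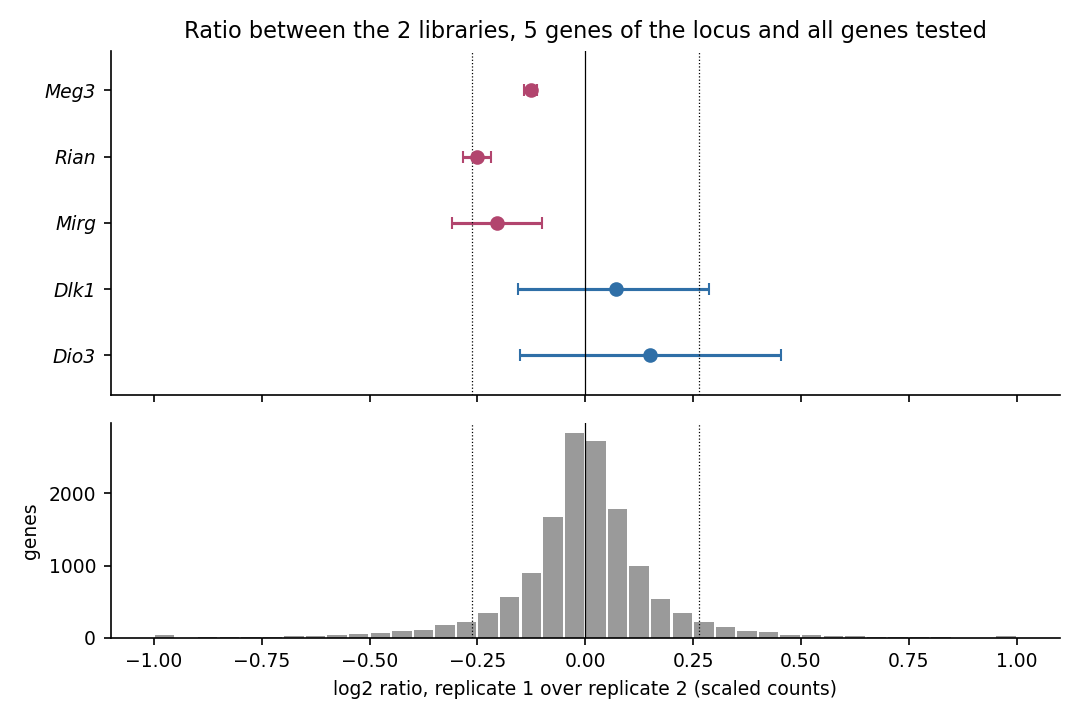
Log2 ratio of replicate 1 over replicate 2 for Meg3, Rian, Mirg, Dlk1 and Dio3 with 95% counting intervals (top) and the number of genes at each ratio over all 14307 genes that averaged 50 counts or more (bottom, values beyond 1 in size drawn in the outermost bars); dotted lines mark 1.2-fold. The 3 noncoding genes lie left of 0 with intervals that do not reach it, and the intervals of Dlk1 and Dio3 include 0.

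Cell-type markers were read beside these ratios. All 8 markers of meningeal fibroblasts were lower in replicate 1, 6 of them over 2-fold, and the list had a median log2 ratio of -1.06 and summed levels of 58.1 TPM (replicate 1) and 96.4 TPM (replicate 2). Insulin-like growth factor 2, Igf2, which is itself imprinted and is strong in meninges, had 18.8 TPM in replicate 1 and 38.8 TPM in replicate 2. All 3 choroid plexus markers that averaged 50 counts or more were higher in replicate 1, 2 of them over 2-fold, led by transthyretin, Ttr, at 150 and 49.1 TPM in replicates 1 and 2. The 6 markers of that list summed to 159 and 54.7 TPM. All 6 oligodendrocyte markers were higher in replicate 1, none over 2-fold, with a median log2 ratio of 0.38 and sums of 1168 and 843 TPM. The 7 excitatory neuron markers had a median of -0.00, the 7 interneuron and 6 astrocyte markers medians of -0.03 each, the 4 oligodendrocyte precursor markers also -0.03 and the 5 microglia markers -0.07. The endothelial list had a median of -0.12 and sums of 65.3 TPM in both libraries. On scaled counts all 5 genes were below their replicate 2 value, Cldn5 only at 0.999 times. By TPM, Ly6c1 and Cldn5 were higher in replicate 1. Of 4 mural cell markers that averaged 50 counts or more, 3 were lower in replicate 1, with a median of -0.49, and the 5 markers of that list summed to 26.8 and 29.3 TPM. The 4 ependymal markers summed to 8.55 and 5.43 TPM. Of neighbouring brain regions, none of 7 hypothalamic markers reached 1 TPM in both libraries, while all 4 thalamic and 3 of 5 striatal and cholinergic markers did. The thalamic markers were led by Rora at 12.2 and 13.8 TPM, with a median of -0.14 and sums of 31.1 and 33.6 TPM. On scaled counts all 4 were lower in replicate 1, while by TPM Prkcd was higher there, at 12.7 and 12.4 TPM. The striatal and cholinergic markers were led by Ppp1r1b at 26.4 and 22.9 TPM, with a median of 0.01. All 7 excitatory neuron markers reached 1 TPM in both libraries, led by Camk2a at 1333 and 1278 TPM. The part of these cell types in the members' ratios was not tested.

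From the start of Dlk1 to the end of Dio3 the domain spanned 828 kb and held 118 annotated genes, 100 of them on the plus strand. They were 67 microRNA genes, 23 small nucleolar RNA genes and 28 others, and 14 of the 28 had 0 counts in both libraries. Dlk1 (chr12:109452823-109463336, plus strand) and Meg3 (chr12:109541001-109571726, plus strand) were 78 kb apart. Rtl1 (chr12:109589193-109600330) lay on the minus strand between Meg3 and Rian (chr12:109603940-109661716, plus strand). Mirg (chr12:109729764-109749460, plus strand) followed 68 kb after Rian, and Dio3 (chr12:110279068-110281097, plus strand) closed the domain. All coordinates are on mm10 from GENCODE M21, and the identifiers are ENSMUSG00000021268.17 for Meg3, ENSMUSG00000097451.10 for Rian, ENSMUSG00000097391.8 for Mirg, ENSMUSG00000040856.17 for Dlk1, ENSMUSG00000085925.3 for Rtl1 and ENSMUSG00000075707.5 for Dio3.

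Besides the 6 genes and the small RNA genes, 3 genes in the domain passed 1 TPM on average, and all 3 lay on the plus strand between the start of Rian and the start of Mirg. Gm26945, a long intergenic noncoding RNA inside the span of Rian, had 7.71 and 7.25 TPM in replicates 1 and 2. Gm37899, a model that the annotation marks as awaiting experimental evidence, had 3.72 and 3.97 TPM, and B830012L14Rik, a long intergenic noncoding RNA, had 2.28 and 2.16 TPM. Dio3os, the noncoding gene that faces Dio3 from the minus strand, had 0.80 and 0.64 TPM from 16 and 14 counts, below Dio3 in both libraries. From Mirg to Dio3os, 526 kb held 11 annotated genes that together had 14 counts in replicate 1 and 3 in replicate 2. Expression in the domain was thus concentrated from Meg3 to Mirg, with little between Mirg and Dio3.

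**Figure D4:**
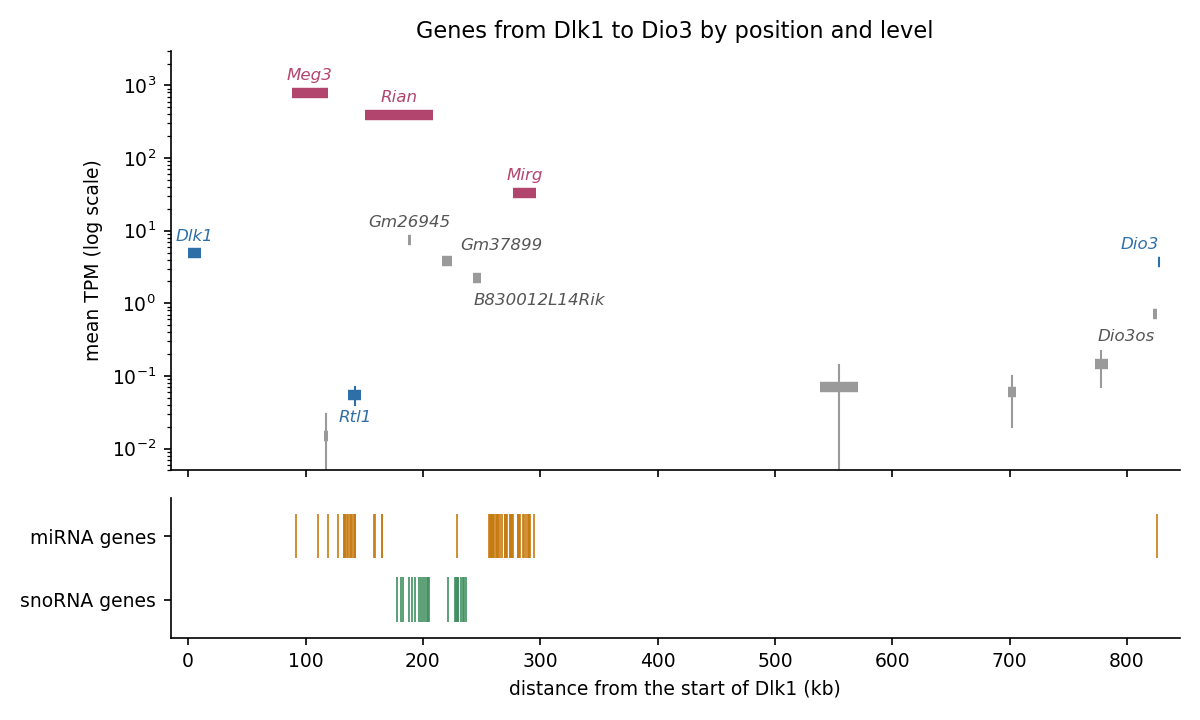
Genes between Dlk1 and Dio3 by distance from the start of Dlk1 in kb and by mean TPM on a log axis (top; each thick line spans a gene, thin lines join the 2 libraries and reach the lower edge where a library is listed at 0, genes with 0 TPM in both are not drawn), with microRNA and small nucleolar RNA genes as ticks (bottom). Meg3, Rian and Mirg stand above all other genes of the domain, and the stretch from Mirg to Dio3os holds no gene at 1 TPM.

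Protein-coding genes outside the domain gave its surroundings. Of the 5 nearest genes on each side, 9 of 10 were at 1 TPM or more in both libraries, and their median level was 27.4 TPM (replicate 1) and 25.3 TPM (replicate 2). On the Dlk1 side, Begain, a synaptic protein 385 kb away, had 53.6 and 48.4 TPM. Wars, a tryptophan tRNA synthetase, had 36.8 and 34.2 TPM, and Wdr25, Slc25a47 and Slc25a29 were between 3.49 and 9.84 TPM. On the Dio3 side, Ppp2r5c, a phosphatase subunit 166 kb away, had 97.2 and 95.8 TPM. Dync1h1, the dynein heavy chain, had 114 and 108 TPM, Hsp90aa1, a cytosolic chaperone, 435 and 405 TPM, Wdr20 18.1 and 16.3 TPM, and 1700001K19Rik was at 0 in both. Dlk1 and Dio3 were lower than the nearest detected gene on their own side in each library.

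Meg3 has 11 annotated transcripts, and which of them led depended on the measure. Meg3-203, a 457-base transcript with 3 exons, had the largest share of Meg3 TPM, 26.5% in replicate 1 and 26.9% in replicate 2. It held 2.86% and 3.01% of Meg3 counts, and the kallisto layout gave it 0 in both libraries. Meg3-209, of 14548 bases, had 17.8% and 17.1% of TPM but 77.6% and 77.1% of counts. In the kallisto layout Meg3-209 led with 24.8% and 24.0% of TPM and 72.2% and 72.1% of counts. Per read, Meg3-209 held most of Meg3 in both libraries and both layouts, and by TPM the leader differed between layouts.

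The other Meg3 transcripts of large share varied less between libraries than between layouts. Meg3-202 had 18.0% and 18.4% of TPM in replicates 1 and 2, against 13.1% and 13.4% in the kallisto layout. Meg3-205 had 15.5% and 14.7%, against 21.4% and 20.1%. Meg3-201 had 7.72% and 8.20%, against 4.06% and 3.70%. For these 3 the libraries lay closer to each other than the layouts did. Meg3-204 had 5.21% and 6.09%, against 16.6% and 19.4% in the kallisto layout. Meg3-206, of 5971 bases, was chosen for mention after its values were seen, and had 0.73% and 0.57% of TPM, against 15.0% and 14.6% in the kallisto layout. The effective number of Meg3 transcripts, the inverse of the sum of squared shares, was 5.88 and 5.90 by TPM in replicates 1 and 2, 5.60 and 5.59 in the kallisto layout, and 1.64 and 1.65 by counts.

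Meg3-209 starts at chr12:109545398, the inner start whose promoter window is printed above, and its last exon of 13087 bases (chr12:109558640-109571726) runs to the end of the gene. Of its bases, 73.6% lie in no exon of another Meg3 transcript. Nearly all of that stretch is intron in Meg3-207, the transcript of largest span, so in total RNA the tables cannot tell reads of Meg3-209 from unspliced RNA of other transcripts. The Mir770 hairpin (chr12:109563692-109563785, 94 bases, plus strand) lies in that last exon, in an intron of 3 other transcripts and outside the remaining 7. Those 3 intronic models held 6.17% and 5.84% of Meg3 TPM in replicates 1 and 2. The 3 transcripts that begin at the outer start, with the TGACGTCA and TATAAA matches, held 27.2% and 26.3% of Meg3 TPM and 13.1% and 13.2% of counts. The 7 transcripts that start elsewhere held 54.9% and 56.6% of TPM and 9.29% and 9.68% of counts. Gm26906, annotated antisense to the end of Meg3, had 0 and 1 counts.

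**Figure D5:**
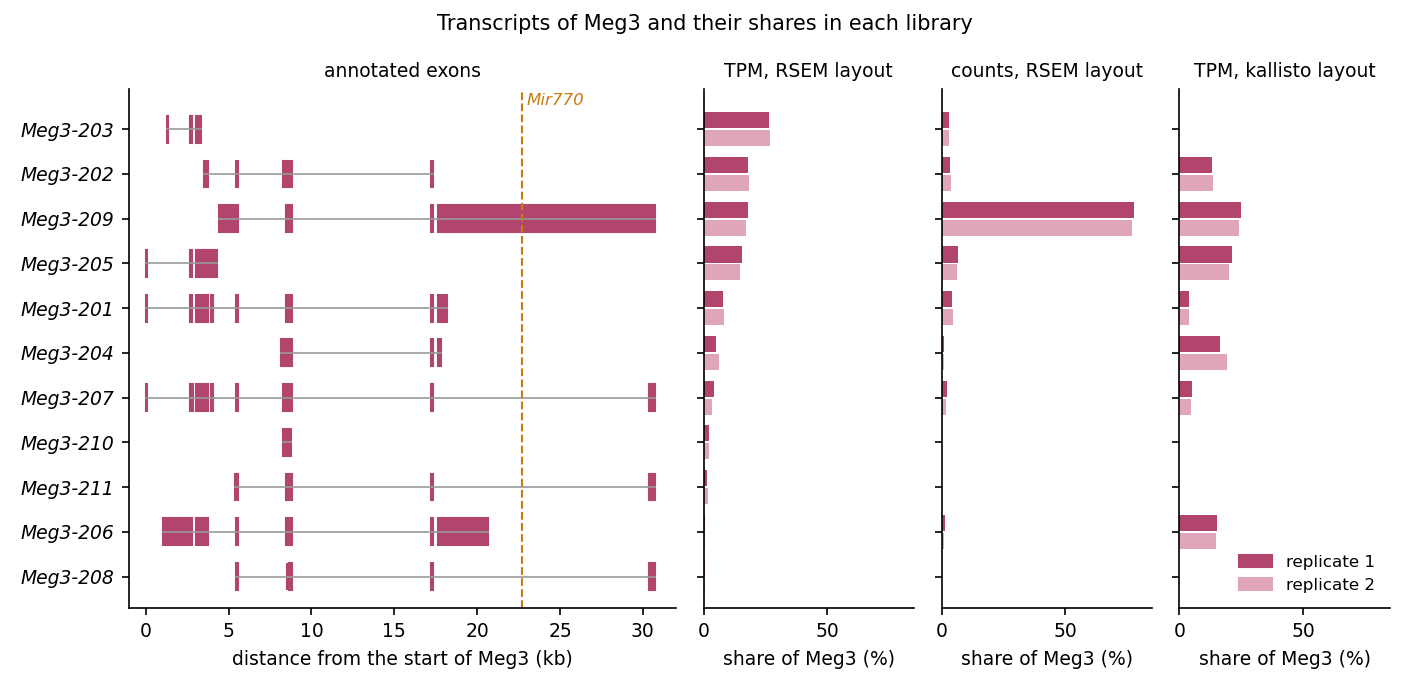
Exons of the 11 Meg3 transcripts by distance from the start of the gene in kb (left; the dashed line marks Mir770) and the share of each transcript in percent of Meg3 TPM, Meg3 counts and kallisto-layout TPM in replicate 1 and replicate 2. Meg3-209 with its long last exon takes 77.6% and 77.1% of counts, while Meg3-203 leads the RSEM-layout TPM and is at 0 in the kallisto layout.

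By TPM, Rian and Mirg kept their leading transcript in both libraries and both layouts. Rian-202 led the 20 Rian transcripts with 34.0% and 34.5% of TPM in replicates 1 and 2, and with 25.2% and 25.4% in the kallisto layout. Rian-213 followed with 21.2% ± 0.269, and Rian-205 with 6.71% ± 0.170 (SD, n = 2 each). In the kallisto layout Rian-213 had 19.3% and 21.6% in replicates 1 and 2, and Rian-205 had 13.8% and 14.4%. The first 2 begin 42201 and 46741 bases into the gene, so the largest shares of Rian came from its 3′ part. Mirg-201 led the 12 Mirg transcripts with 31.6% and 29.2%, ahead of Mirg-203 with 17.4% and 21.1% and Mirg-207 with 15.0% and 20.3%. Mirg-207 was at 0 and 4.77% in the kallisto layout, so its share rested on the layout. By counts of the kallisto layout, Mirg-201 held 27.7% and 25.6% in replicates 1 and 2. Mirg-208 held 27.0% and 31.2% there, so it led in replicate 2.

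For Dlk1 the leading transcript was not the same in the 2 libraries. Dlk1-208 had 44.4% of TPM in replicate 1 and 27.6% in replicate 2, and Dlk1-205 had 35.7% and 41.4%. Dlk1-206 had 0 in replicate 1 and 23.0% in replicate 2, and in the kallisto layout Dlk1-203 led with 34.1% and 32.5%. With 347 and 340 counts spread over 10 transcripts, the split of Dlk1 was not resolved. Dio3-202, the longer of 2 single-exon models, held 87.4% and 100% of Dio3 TPM in replicates 1 and 2, against 63.9% and 76.8% in the kallisto layout. Rtl1 has a single annotated transcript of 6358 bases.

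The small RNA genes of the domain were nearly out of reach of these libraries. The 67 microRNA genes were 49 to 124 bases long, and only 8 had an effective length above 0, the number of positions from which a fragment could come. Of those 8, 4 held counts, 25 in all in replicate 1 and 11 in replicate 2. Mir433 had 14 and 9 counts in replicates 1 and 2, Mir1188 had 6 and 2, Mir1197 had 2 and 0 and Gm27379 had 3 and 0. None of the 23 small nucleolar RNA genes had an effective length above 0, and the kallisto layout held no count for any of the 90 small RNA genes. A value of 0 for such a gene is a limit of the measurement, and mature microRNAs were not measured. The TPM of these genes rests on effective lengths of 13 to 25 bases and was not set beside that of the long genes.

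The annotation placed the small RNA genes in and around the noncoding genes. Of the 13 small nucleolar RNA genes inside Rian, 8 lay within an exon of a Rian transcript and 5 in none. Of the 4 microRNA genes inside Rian, 0 lay in an exon, while both microRNA genes inside Meg3 did. Mirg held 15 microRNA genes, 4 of them inside an exon and 6 in no exon, and 40 small RNA genes lay between Rian and Mirg. The span of Rtl1 held 7, all inside its exons and 6 of them on the opposite strand. Mir433, the microRNA gene with the most counts, lies in an exon of Rtl1 on the opposite strand. The strand setting of the quantification is not given in the sources used here, so the 14 and 9 counts of Mir433 and the 11 and 7 counts of Rtl1 may share reads.

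Mature sequences from RefSeq (GRCm38.p6) are shown for microRNAs that the results above touch, with the seed, bases 2 to 8, in capitals. RefSeq had a hairpin of the same symbol for 58 of the 67 microRNA genes, with 113 mature names and 104 distinct seeds. Shown are miR-770 from the last exon of Meg3-209, miR-433, miR-136 and miR-127 from opposite Rtl1, miR-1188 from Rian, miR-134, known from dendritic spines, from Mirg, and the pair miR-379-5p and miR-1193-5p, which share a seed.
miR-770-5p: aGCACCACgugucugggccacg
miR-770-3p: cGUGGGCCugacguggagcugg
miR-433-3p: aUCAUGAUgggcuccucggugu
miR-136-5p: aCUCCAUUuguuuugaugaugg
miR-127-3p: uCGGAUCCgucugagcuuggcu
miR-1188-5p: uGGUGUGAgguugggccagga
miR-134-5p: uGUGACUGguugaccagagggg
miR-379-5p: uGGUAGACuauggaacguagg
miR-1193-5p: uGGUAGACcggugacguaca

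Among the 113 mature names, 9 seeds were shared by more than 1. MicroRNAs made from the strand opposite Rtl1 are perfectly complementary to its mRNA, and in mouse they are known to guide its cleavage. A search of the Rtl1 transcript found a fully complementary stretch for 11 mature microRNAs of 6 hairpins, all 11 inside the coding sequence. Shown for 3 of them are the Rtl1 stretches on the minus strand, 5′ to 3′, with the complement of the seed in capitals, at chr12:109591781-109591802, chr12:109595331-109595352 and chr12:109592888-109592909 on mm10.
Rtl1 stretch opposite miR-433-3p: acaccgaggagcccATCATGAt
Rtl1 stretch opposite miR-136-5p: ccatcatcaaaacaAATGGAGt
Rtl1 stretch opposite miR-127-3p: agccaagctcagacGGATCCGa

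These sequences are positions of complementarity, and the low level of Rtl1 was not tested against them. Genes of the machinery that makes such RNAs were read as lists. Over all protein-coding genes, 12733 of 22028 were at 1 TPM or more in both libraries, and the counts of this and later lists stand beside that share. All 9 microRNA processing genes were at 1 TPM or more in both libraries, led by Drosha, the nuclear microRNA nuclease, at 37.0 and 34.4 TPM in replicates 1 and 2, Ago2, which binds the mature strand, at 35.4 and 35.2 TPM, and Ago1 and Xpo5, with Ago4 lowest at 3.27 and 3.04 TPM. All 6 genes listed for small nucleolar ribonucleoproteins were detected too, led by Nop56 at 49.1 and 49.5 TPM and Snu13 at 47.4 and 50.2 TPM. The methyltransferase Fbl was lowest at 17.4 and 18.9 TPM. Of the 9 and 6 genes of these lists that averaged 50 counts or more, 0 were over 2-fold apart, against 0.384% of all genes of that depth.

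Proteins that keep or read imprints were read as a list of 13, of which 11 reached 1 TPM in both libraries. Trim28, the corepressor recruited by zinc finger proteins, had 87.4 and 92.8 TPM in replicates 1 and 2. Zfp445, a zinc finger protein that maintains imprints, had 61.3 and 55.5 TPM, Aff3 had 46.6 and 45.7 TPM and the insulator protein Ctcf 34.1 and 28.6 TPM. Zfp57, the other imprint-maintaining zinc finger protein, was at 3.50 and 3.92 TPM, and Dppa3, an oocyte and early embryo protein, was at 0 in both. None of the 11 that averaged 50 counts or more was over 2-fold apart, against 0.384% of all genes of that depth.

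Genes from the pathways or families of the 3 proteins were read beside their low levels. The lists were chosen and not drawn at random, and 12733 of all 22028 protein-coding genes were detected. For Dlk1, 6 of 7 Notch ligands or related proteins were at 1 TPM or more in both libraries. Dner, a neuronal ligand-like protein, had 47.4 and 47.6 TPM in replicates 1 and 2, and Dlk2, the closest relative of Dlk1, had 19.8 and 18.9 TPM, above Dlk1 in both. Jag2 had 17.8 and 16.4 TPM and Dll1 5.23 and 4.04 TPM, and Dll3 was lowest at 1.04 and 0.54 TPM. All 4 receptors were detected, from Notch1 at 10.7 and 9.04 TPM to Notch3 at 1.78 and 2.01 TPM. All 12 modifiers and effectors were detected, led by Rfng, a glycosyltransferase that modifies Notch, at 24.2 and 23.1 TPM, with Heyl lowest at 1.08 and 1.31 TPM. Of the ligands, receptors and effectors, 6, 4 and 12 genes averaged 50 counts or more. Among them 0 were over 2-fold apart on scaled counts, against 0.384% of all genes of that depth. Hes5, a transcriptional repressor induced by Notch and chosen for mention after its values were seen, lay at the 2-fold limit. It had 281 and 144 counts and 10.4 and 4.50 TPM in replicates 1 and 2, and by TPM it was past 2-fold.

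For Dio3, the opposing enzyme Dio2, which activates thyroid hormone, had 22.1 TPM in replicate 1 and 17.4 TPM in replicate 2, above Dio3 in both, and Dio1 was at 0. All 5 transport and binding genes were detected, from Crym, a cytosolic thyroid hormone binding protein, at 103 and 90.2 TPM to the transporter Slc16a10 at 1.58 and 1.41 TPM. All 10 receptor and target genes were detected, led by the receptor Thra at 448 and 420 TPM and the corepressor Ncor1 at 113 and 111 TPM, with Hr lowest at 2.81 and 2.97 TPM. All 6 genes of selenoprotein synthesis, which Dio3 needs for its selenocysteine, were detected, from Pstk at 19.4 and 16.6 TPM to Sepsecs at 3.58 and 3.76 TPM. For Rtl1, 10 of 11 other genes derived from Sushi-ichi retrotransposons reached 1 TPM in both libraries. Rtl8a, Rtl8c and Rtl8b led with 115 and 119, 91.1 and 88.0, and 81.6 and 77.2 TPM in replicates 1 and 2, and near-identical copies among them can share reads. The lowest was Rtl9 at 0.32 and 0.48 TPM, above Rtl1 in each library. In the order given, these 5 lists had 1, 5, 10, 6 and 10 genes that averaged 50 counts or more. Among them 0 were over 2-fold apart between the libraries, against 0.384% of all genes of that depth. Lists this short are too small for a count of 0 to set them apart from that share.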

How the data were processed

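Total RNA libraries of 1 group (2 libraries) were read from deposited tables. Each deposited gene table gives, per the file headers, an expected count, TPM, FPKM, a posterior mean of each and an effective length, under the column names that RSEM writes. The deposited transcript table of that layout adds the percent of its gene's TPM, and a kallisto-layout table gives an estimated count and TPM. Per the deposited notes, features came from GENCODE M21 on mm10. The aligner with its version is not given in the sources used here, nor is the strand option.

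Expected counts were rounded and scaled by TMM after filterByExpr in edgeR 4.0.16 (R 4.3.3). ERCC rows and 26248 rows without a gene name, with 2.78 counts in replicate 1 and 6.00 in replicate 2, were left out. Kallisto-layout values were summed over transcripts. Detected means at least 1 TPM in both libraries. Calls of 2-fold and 1.2-fold used genes averaging 50 counts or more. Python 3.11.15, pandas 2.3.3 and scipy 1.17.1 were used. The genes, lists and rules were chosen with earlier results of these data known. Named were the 6 genes, genes of the domain with a mean of at least 1 TPM or 50 counts and Dio3os, 5 neighbours per side, up to 4 highest, the lowest and any called apart of each list, the 6 leading Meg3 transcripts and up to 3 of other genes.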

Additional observations from a re-analysis of the deposited data

How the results depend on the processing

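Among 183 recomputed values, 144 stayed within the margin set for their kind and 39 moved beyond it. The margin was the spread between the libraries for a level, ratio or share, the counting interval for a ratio of libraries, and 1.5 times for a count or rank. With 2 libraries, leaving 1 out moves a mean by less than their SD. Levels, ratios and shares therefore stayed within the margin by construction when 1 library was left out. A change of sign could be recorded only for ratios of libraries whose counting interval excluded no difference, and 0 of these changed sign. The number of genes of the domain at 1 TPM or more, 5, and the rank of Meg3, 5, were the same under all their alternatives. Some of these could hardly move the rank. All genes above Meg3 are annotated as long intergenic noncoding RNAs, so its rank within that class was fixed, and FPKM is in proportion to TPM within a library. The noncoding to coding ratio of 143 became 49.9 without Meg3 and 108 with medians in place of sums, and leaving out 1 library gave 124 to 161. The TPM share of Meg3-203, 26.7% on average, was 0 in the kallisto layout, 2.94% of expected counts and 27.1% with transcripts under 1% left out. The number of small RNA genes with counts, 4, was 0 in the kallisto layout, and leaving out 1 library gave 2 to 4. The flanking median of 26.3 TPM was 39.7 in the kallisto layout. Genes over 2-fold apart, 55, were 437 among genes averaging 10 counts or more and 15 at 200 or more. DESeq2 1.42.0 size factors gave 56. The cause of these moves was not tested. Of 174 list genes, 152 were detected, and 111 to 165 with minimums of 5 and 0.1 TPM. Depth limits Rtl1 and the transcripts of Dlk1 and Dio3, and gene length limits the small RNA genes. No paired analysis was possible because the labels give 1 group.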
